A study of Homo sapiens with 6 samples.

Results

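Oxidative phosphorylation genes, named for their place in respiratory complexes I to V, were followed in DU-145 cells, a human prostate cancer line. Members were chosen by symbol: the NDUF subunit genes for complex I, the SDH genes for complex II, the UQCR genes for complex III, the COX subunit genes for complex IV and the ATP5 genes for complex V, with the 13 protein genes of the mitochondrial genome. The rule took no measured value beyond the read minimum of 10 reads in at least 3 libraries. It found 101 candidate genes, and 98 passed the read minimum, 85 encoded in the nucleus and 13 in the mitochondrion, of 60662 genes in the count table. The 3 candidates left out were COX4I2, with 2, 2 and 1 reads in DOX-positive libraries and 0, 2 and 0 in DOX-negative libraries, and COX6A2 and COX7B2, with 0 reads in every library. Assembly factors and pseudogenes were not members.

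The cells carried a doxycycline-inducible short hairpin RNA against MUC1, a transmembrane mucin. DOX-positive cells received doxycycline for 7 days and DOX-negative cells received vehicle for 7 days, and both then received interferon-gamma at 10 ng/ml for 24 hours. Each group had 3 polyadenylated RNA libraries from cultures of one line, so the spread is that between cultures. Every library carried the hairpin construct and interferon-gamma, so a response of these genes to interferon-gamma itself was not measured. Doxycycline, a tetracycline antibiotic known to bind the mitochondrial ribosome, was given to every DOX-positive library and to no DOX-negative library, so its own effect and that of MUC1 loss cannot be told apart here.

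The electron transport chain passes electrons from NADH (complex I) and succinate (complex II) through coenzyme Q to complex III, cytochrome c and complex IV, and complexes I, III and IV pump protons that drive ATP synthase, complex V. Complexes I, III, IV and V are built from subunits of both genomes, and complex II from nuclear subunits only. The mitochondrial genes are transcribed as long precursors from each strand and cut into mRNAs, whereas each nuclear subunit gene has its own promoter, and many of these promoters carry sites for NRF1, ETS-family factors such as GABPA, or YY1.

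Libraries held 87739734 to 150921436 reads on genes, and 25179 genes were tested. MUC1 stood at 1.53, 1.31 and 1.32 CPM in DOX-positive libraries, against 20.4, 21.8 and 22.2 CPM in DOX-negative libraries. CPM is the read count scaled to a common library size (the usual 1e6 reads) after trimmed-mean adjustment. Epithelial markers (KRT8, KRT18, KRT19, EPCAM, CDH1 and EGFR, 6 of 6 detected) summed to 3940 to 4090 CPM in DOX-positive libraries and 1720 to 1760 CPM in DOX-negative libraries. KLK3, a marker of differentiated prostate luminal cells, had 0 reads in all 6 libraries. Leukocyte markers summed to 0.0138 to 0.0569 CPM in DOX-positive libraries and 0.00681 to 0.0436 CPM in DOX-negative libraries, near the floor of 3 reads (0.0204 to 0.0328 CPM). Stromal markers summed to 4.80 to 5.25 CPM in DOX-positive libraries and 6.48 to 7.54 CPM in DOX-negative libraries. The part of the epithelial difference in the results below was not tested. In bulk RNA, fewer cells with a transcript and less of it per cell cannot be told apart.

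Most members were moderately higher in DOX-positive cells, in both genomes. Of the 98 members, 75 were higher, 3 were lower and 20 were not called (edgeR quasi-likelihood test, Benjamini-Hochberg adjusted p under 0.05 over all genes tested). Among all genes tested 27.1% were higher and 28.2% lower (55.3% in all), and among the 9762 genes with a mean of 10 CPM or more 50.5% were higher and 29.1% lower (79.6% in all). The median log2 fold change was 0.33 over the members, -0.05 over all genes tested and 0.10 over the genes at 10 CPM or more. The 68 nuclear members at 10 CPM or more included 57 higher and 2 lower (83.8% higher), and the 17 nuclear members below 10 CPM included 6 higher and 1 lower. The 6 libraries separated by group for 81 of 98 members, against 61.4% of all genes tested and 81.9% of genes at 10 CPM or more. The changes were small: apart from COX8C, a gene with few reads, no called member reached 2-fold, whereas 12.7% of all genes tested and 4.59% of those at 10 CPM or more were both called and at least 2-fold apart.

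By complex, the count of nuclear members called higher was 26 of 39 for complex I, 3 of 4 for complex II, 8 of 9 for complex III, 10 of 14 for complex IV and 16 of 19 for complex V. Their median log2 fold changes were 0.27, 0.19, 0.21, 0.43 and 0.38 in that order. Complex IV and complex V had no nuclear member called lower, complex I had 2 (NDUFA9 and NDUFB5) and complex III had 1 (UQCRFS1). Among all genes tested 27.1% were higher, and among genes at 10 CPM or more 50.5% were. The complexes were not matched for level. Of the 17 nuclear members below 10 CPM only 6 were higher, and most of the 17 were complex I genes. The differences between complexes were not tested. With library size alone as the scaling, which lowers the median of all genes by 0.14 on the log2 scale, 47 nuclear members were higher and 10 lower, and the all-gene split was 4693 higher and 9553 lower in place of 6826 and 7107.

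**Figure D1:**
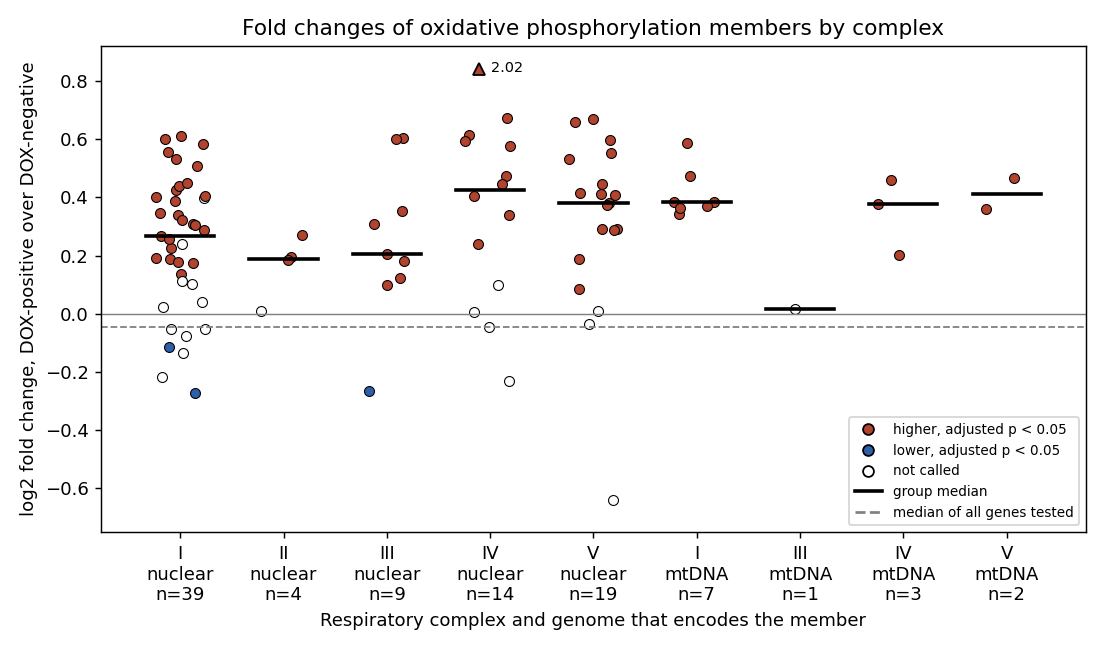
Log2 fold changes, DOX-positive over DOX-negative, of the 98 members (points) by complex and encoding genome, with group medians (bars) and the median of all genes tested (dashed). Most points lie between 0 and 0.67, the nuclear medians run from 0.19 to 0.43, and the triangle marks COX8C at 2.02, beyond the axis.

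Promoter windows are shown for members that moved in the same direction, and for 1 that moved in the other, because they hold letters of sites this gene class is known for, before or just after the start site. Of 85 nuclear members, 69 matched a RefSeq promoter (GRCh38.p14, 250 bases before to 50 after the first listed start site). Each window below runs 5′ to 3′ on the strand of the gene, with motif matches in capitals. The NRF1 motif is the capitals of the ATP5F1C and NDUFA8 lines and reads the same on both strands, the ETS motif is CCGGAAGT (ACTTCCGG on the other strand), and the YY1 motif is the capitals of the NDUFA9 line. No match overlaps another motif's match in the windows shown. UQCRH lies at chr1:46303621-46303688 on the plus strand, COX8A at chr11:63974571-63974638 (plus), SDHD at chr11:112086733-112086832 (plus), ATP5F1C at chr10:7788125-7788194 (plus), NDUFA8 at chr9:122159744-122159813 (minus) and NDUFA9, which was lower, at chr12:4649094-4649163 (plus).
UQCRH: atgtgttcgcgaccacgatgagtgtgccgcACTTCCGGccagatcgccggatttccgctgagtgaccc
COX8A: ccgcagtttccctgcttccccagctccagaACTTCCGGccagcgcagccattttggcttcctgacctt
SDHD: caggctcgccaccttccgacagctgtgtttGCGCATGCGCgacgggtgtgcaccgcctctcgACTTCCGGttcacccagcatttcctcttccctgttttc
ATP5F1C: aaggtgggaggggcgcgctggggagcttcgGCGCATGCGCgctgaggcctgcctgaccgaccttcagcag
NDUFA8: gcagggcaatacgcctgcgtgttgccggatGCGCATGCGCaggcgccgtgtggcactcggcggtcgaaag
NDUFA9: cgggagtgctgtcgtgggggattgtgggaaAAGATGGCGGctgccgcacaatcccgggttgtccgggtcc
COX8A, ATP5F1C and NDUFA8, higher by 0.67, 0.38 and 0.23 on the log2 scale, are shown for their motif matches and were chosen after their values were seen.

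The exact NRF1 letters were found on either strand in 4 of the 69 windows (5.8%), against 1.36% of the 27305 promoters in the table. With any base in place of its sixth letter, a search that includes the exact matches, the shares were 24.6% of members and 6.28% of all promoters. The ETS letters were in 14.5% of member windows and 4.44% of all, and the YY1 letters in 10.1% and 1.28%. At least 1 of the NRF1 (exact), ETS and YY1 matches stood in 20 of the 69 member windows, against 6.73% of all promoters. The exact NRF1 match was in 4 of 52 windows of members called higher and 0 of 15 of members not called, and the ETS match in 7 of 52 and 3 of 15. The YY1 match was in 5 of 52 and 1 of 15, and the NRF1 match with a free sixth letter in 13 of 52 and 2 of 15. Of the 2 windows of members called lower, 2 held this looser NRF1 match, 1 the YY1 match and 0 the exact NRF1 or the ETS match. A match is a stretch of letters and not a measured binding site.

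The mitochondrial genome gave the most abundant members. Levels per kilobase use the length given with the counts. MT-CO1, the catalytic core of complex IV, stood at 9594 CPM per kilobase in DOX-positive cells and 7381 CPM per kilobase in DOX-negative cells. The highest nuclear member, ATP5F1B, which encodes the catalytic beta subunit of ATP synthase, stood at 359 and 270.2 CPM per kilobase in DOX-positive and DOX-negative cells. Of the 13 mitochondrial genes 12 were higher, against 27.1% of all genes tested and 50.5% of genes at 10 CPM or more. The 13 had a median log2 fold change of 0.38 and a range of 0.02 to 0.59. They share precursors, so the 13 values are not independent of each other.

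MT-ND4, a membrane subunit of the complex I proton pump, had 11610, 10300 and 10850 CPM in DOX-positive libraries, against 6659, 8969 and 7959 CPM in DOX-negative libraries (log2 fold change 0.47, SE 0.07, edgeR adjusted p = 1.47e-05). MT-ND4L, whose reading frame overlaps that of MT-ND4 on one mRNA, had 845.7, 694.5 and 777.1 CPM in DOX-positive libraries, against 436, 606.9 and 499.5 CPM in DOX-negative libraries (0.59, SE 0.09, edgeR adjusted p = 1.53e-05). The groups did not overlap for either gene, and the second DOX-negative library lay closest to the DOX-positive ones. The other 5 complex I genes, MT-ND1, MT-ND2, MT-ND3, MT-ND5 and MT-ND6, were higher by 0.34 to 0.39 on the log2 scale. MT-ND6, the one gene of the 13 on the light strand and so from another precursor, averaged 1613 ± 166 CPM in DOX-positive cells and 1255 ± 181 CPM in DOX-negative cells (SD, n = 3 each), a log2 fold change of 0.36. The strand setting of the counting is not given, so reads of the heavy-strand precursor may be among those of MT-ND6.

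Complex IV and complex V genes of the mitochondrial genome were higher as well. MT-CO2, which carries the site that accepts electrons from cytochrome c, had 4588, 4465 and 4662 CPM in DOX-positive libraries, against 2993, 3731 and 3249 CPM in DOX-negative libraries (0.46, SE 0.05, edgeR adjusted p = 6.09e-07). MT-CO1 was higher by 0.38 on the log2 scale, MT-ATP6, the channel subunit of ATP synthase, by 0.36, and MT-ATP8, which shares an mRNA with MT-ATP6, by 0.47. MT-ATP6 shows how near the groups came: its lowest DOX-positive library had 2756 CPM and its highest DOX-negative library 2751 CPM. MT-CO3, the third core subunit of complex IV, was higher by 0.20, and with library size alone its value was 0.06 and it was not called (edgeR adjusted p = 0.175).

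MT-CYB, the sole mitochondrial subunit of complex III, stood apart from the other 12. It had 3395, 3009 and 3179 CPM in DOX-positive libraries, against 2737, 3562 and 3167 CPM in DOX-negative libraries, so the groups overlapped (log2 fold change 0.02, SE 0.06, edgeR adjusted p = 0.833). It lies at positions 14747 to 15887 of the mitochondrial chromosome (GRCh38) and is the last protein gene along the heavy-strand precursor. As a share of the reads on the 13 genes, which does not depend on library scaling, MT-CYB made up 5.27%, 5.28% and 5.22% in DOX-positive libraries, against 6.65%, 6.67% and 6.75% in DOX-negative libraries. The 6 shares split by group with a log2 ratio of -0.35. An exact two-sided permutation test gave p = 0.1, the smallest that 3 against 3 libraries allow.

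The share of 4 other mitochondrial genes also split by group without overlap. MT-CO3 made up 8.12% ± 0.23 in DOX-positive cells and 9.14% ± 0.61 in DOX-negative cells (SD, n = 3 each). The shares that were higher in DOX-positive cells were those of MT-ND4 (17.97% and 16.65% on average in DOX-positive and DOX-negative cells), MT-ND4L (1.27% and 1.09%) and MT-ATP8 (0.614% and 0.571%). Each of these 4 also had p = 0.1 by the exact permutation test, and the shares of the remaining 8 genes overlapped. The 13 shares of a library add up to a fixed total, so these splits are not independent of each other or of MT-CYB. The p-values were not adjusted for the 13 genes compared. MT-CO1 made up 24.35% in DOX-positive and 24.14% in DOX-negative cells on average.

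**Figure D2:**
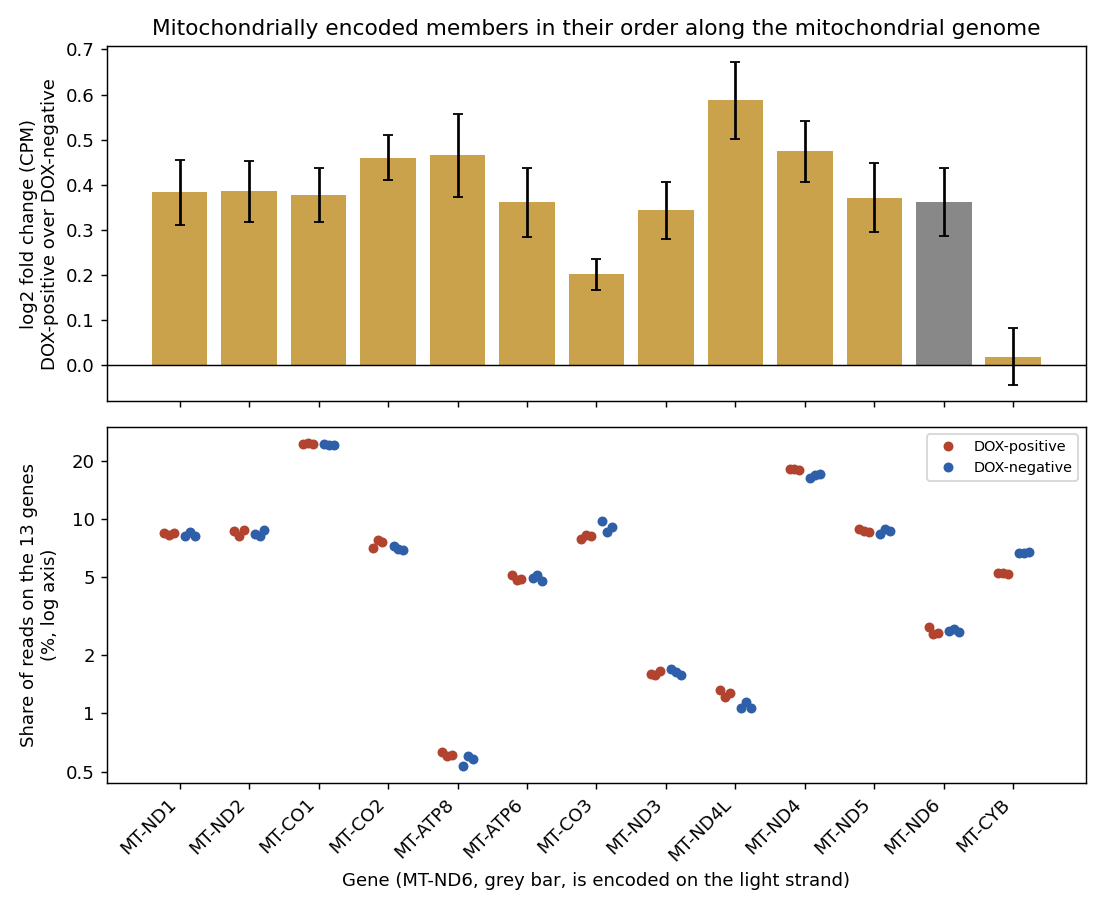
Above, log2 fold changes with standard errors (bars and whiskers) of the 13 mitochondrial genes in genome order. Below, each gene's share of the reads on the 13 genes in every library (log axis); MT-CYB lies at 5.22 to 5.28% in DOX-positive libraries and 6.65 to 6.75% in DOX-negative libraries.

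Before trimmed-mean scaling the total of the 13 genes did not split by group. They took 6.17%, 5.46% and 5.72% of the reads of DOX-positive libraries, against 4.33%, 5.65% and 4.89% of DOX-negative libraries. Reads on mitochondrial members per read on nuclear members came to 12.8, 11.4 and 12.0 in DOX-positive libraries and 9.99, 13.1 and 11.7 in DOX-negative libraries. These ratios overlapped, so a shift of the balance between the genomes was not detectable. The first DOX-negative library was the lowest and the second the highest of its group, and the mitochondrial median log2 fold change was 0.30 without the first and 0.48 without the second. Nuclear copies of mitochondrial genes, which share sequence with them, held 1.47%, 1.33% and 1.19% as many reads as the 13 genes in DOX-positive libraries, against 0.673%, 1.39% and 1.06% in DOX-negative libraries.

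Complex I takes electrons from NADH, and its nuclear genes encode core and accessory subunits. Of the 32 tested NDUF genes outside the core, 23 were higher and 2 lower, with a median log2 fold change of 0.30. These 32 were counted by symbol and include NDUFA4 and its paralogue NDUFA4L2. Of the 7 nuclear core genes 3 were higher (42.9%) and 0 lower, with a median of 0.11. Among all genes tested 27.1% were higher, and among genes at 10 CPM or more 50.5% were, with a median of 0.10. The difference between the core genes and the other NDUF genes was not tested. NDUFA4, first assigned to complex I and known to associate with complex IV, had 88.6, 87.2 and 89.0 CPM in DOX-positive libraries, against 61.0, 60.7 and 61.6 CPM in DOX-negative libraries (log2 fold change 0.53, SE 0.03, edgeR adjusted p = 1.45e-10). NDUFA12, an accessory subunit of the peripheral arm, had 73.0, 68.8 and 68.7 CPM in DOX-positive libraries, against 47.6, 48.0 and 44.8 CPM in DOX-negative libraries (0.58, SE 0.04, edgeR adjusted p = 5.27e-10). For both genes the lowest DOX-positive library lay well above the highest DOX-negative one.

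NDUFA1, the complex I nuclear gene with the highest level per kilobase in DOX-positive cells (67.9 CPM, against 44.3 CPM in DOX-negative cells), was higher by 0.61 on the log2 scale. In DOX-negative cells NDUFB10 had the highest level, at 49.4 CPM per kilobase. Exons of a gene on the other strand cover 44.5% of the exon bases of NDUFA1. The strand setting of the counting is not given in the sources used here, so NDUFA1 reads cannot be assigned with certainty. The same holds to a lesser extent for UQCRQ (20.8%) and ATP5F1E (23.2%), described further on. NDUFV1, the core subunit that binds NADH and the flavin, had 111.7, 108.8 and 110.5 CPM in DOX-positive libraries, against 85.7, 85.7 and 79.1 CPM in DOX-negative libraries (0.40, SE 0.04, edgeR adjusted p = 5.49e-08). The core iron-sulphur subunit NDUFS1, named after its values were seen, averaged 123.7 ± 1.46 CPM in DOX-positive cells and 121.8 ± 2.698 CPM in DOX-negative cells, with overlapping groups and a log2 fold change of 0.02.

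The 2 complex I genes called lower did so by little. NDUFB5, a membrane-arm accessory subunit, had 127.7, 127.8 and 131.6 CPM in DOX-positive libraries, against 140.0, 136.8 and 142.3 CPM in DOX-negative libraries, or -0.11 on the log2 scale (SE 0.03, edgeR adjusted p = 0.00689). Its call was lost with DESeq2 and without the first DOX-negative library. NDUFA9, an accessory subunit near the quinone site, had 7.47, 7.39 and 6.37 CPM in DOX-positive libraries, against 9.17, 7.49 and 9.11 CPM in DOX-negative libraries (-0.27, SE 0.09, edgeR adjusted p = 0.0147). Its groups came within 0.1 CPM of each other, and its call was lost without the third DOX-positive, the first DOX-negative or the third DOX-negative library (highest adjusted p = 0.0856).

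Some standard subunit genes of complex I were counted at low levels. NDUFA13, NDUFA7, NDUFB8 and NDUFV2, named after their values were seen, stood at 0.314, 0.434, 0.712 and 0.954 CPM per kilobase in DOX-positive cells and 0.326, 0.366, 0.536 and 0.880 CPM per kilobase in DOX-negative cells. Exons of another gene on the same strand cover 21.0%, 32.3%, 33.8% and 28.4% of their exon bases. None of these 4 was called. Low levels were also seen with less or no same-strand overlap. NDUFA9, NDUFS7 and NDUFA11 (the last 2 also named after their values were seen) stood at 0.681, 0.781 and 0.935 CPM per kilobase in DOX-positive cells. In DOX-negative cells they stood at 0.827, 0.822 and 1.08, and their same-strand overlap was 10.6%, 0% and 9.65%. Exons on the other strand cover 49.1% of the exon bases of NDUFS7, so the strand caveat given for NDUFA1 holds for NDUFS7 too. The NDUFV2 pseudogene NDUFV2P1, also named after its values were seen, averaged 3.12 CPM in DOX-positive and 1.85 CPM in DOX-negative cells, above NDUFV2 itself in DOX-positive cells (2.59 and 2.39 CPM). Over all nuclear members, 6 had at least 20% same-strand overlap, of which COX8A alone was called higher. The 60 with none included 49 higher and 2 lower (all genes tested: 27.1% higher, 28.2% lower, and 50.5% higher at 10 CPM or more). The part of the overlap in these counts was not tested.

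Complex II, succinate dehydrogenase, oxidises succinate and has no mitochondrial gene. SDHC, a membrane anchor, had 318.9, 324.1 and 331.0 CPM in DOX-positive libraries, against 271.0, 262.8 and 273.2 CPM in DOX-negative libraries (log2 fold change 0.27, SE 0.03, edgeR adjusted p = 1.28e-06). The iron-sulphur subunit SDHB averaged 61.7 ± 0.76 CPM in DOX-positive and 53.9 ± 0.81 CPM in DOX-negative cells (0.20), and the anchor SDHD 102.0 ± 5.997 and 89.9 ± 4.11 CPM (0.18). The groups did not overlap for these 3 genes, and SDHB and SDHD were no longer called with library size alone. SDHA, the flavoprotein with the succinate site, had 16.9, 16.3 and 17.5 CPM in DOX-positive libraries, against 17.0, 17.5 and 15.8 CPM in DOX-negative libraries (0.01, SE 0.05, edgeR adjusted p = 0.872). Its transcribed copies, named after their values were seen, make this value uncertain: SDHAP3 averaged 9.75 CPM in DOX-positive and 15.3 CPM in DOX-negative cells, and SDHAP1 7.72 and 8.92 CPM.

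Complex III passes electrons from ubiquinol to cytochrome c. UQCRH, the hinge protein that contacts cytochrome c1, had 107.4, 113.0 and 117.4 CPM in DOX-positive libraries, against 73.6, 73.7 and 75.0 CPM in DOX-negative libraries (log2 fold change 0.60, SE 0.04, edgeR adjusted p = 2.55e-10). Its near-identical copy UQCRHL held 1.46% of the pair's reads per length in both groups, and how reads were split between the copies is uncertain. The small subunits UQCRB, UQCRQ and UQCR10 were higher by 0.21, 0.35 and 0.31. Of the 3 core genes, UQCRC1 and UQCRC2, named after their values were seen, were higher by 0.10 and 0.12, the groups overlapped for UQCRC1, and both lost their calls in some alternatives. UQCRFS1, the Rieske iron-sulphur protein that takes the electron from ubiquinol, was lower, at 64.4, 65.9 and 69.5 CPM in DOX-positive libraries, against 85.3, 76.7 and 77.9 CPM in DOX-negative libraries (-0.26, SE 0.04, edgeR adjusted p = 3.57e-05). UQCRFS1 (chromosome 19, 29205321 to 29213541, GRCh38) was the one lower member whose call held in all 16 alternatives.

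Complex IV reduces oxygen to water. COX7A2L, a COX7A relative known as a supercomplex assembly factor and not a standard subunit, had 111.3, 109.1 and 110.0 CPM in DOX-positive libraries, against 72.4, 73.7 and 73.0 CPM in DOX-negative libraries (log2 fold change 0.59, SE 0.03, edgeR adjusted p = 4.46e-11). COX7C, a small membrane subunit, averaged 91.9 ± 1.09 CPM in DOX-positive and 67.5 ± 0.89 CPM in DOX-negative cells (0.45). COX5A, at the matrix face, averaged 54.7 ± 0.87 and 39.4 ± 0.72 CPM (0.47), and COX6A1 31.9 ± 1.09 and 20.8 ± 1.57 CPM (0.61), each in DOX-positive and DOX-negative cells. COX6B1, which faces the intermembrane space and had the highest level per kilobase among the nuclear complex IV genes, was higher by 0.34. In each of these 5 genes all DOX-positive libraries lay above all DOX-negative ones. COX5B, a zinc-binding subunit named after its values were seen, had overlapping groups and a log2 fold change of 0.01.

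Several complex IV subunits have tissue-restricted forms encoded by other genes. COX4I1, the widely expressed form of subunit 4, was higher by 0.41 and its pair COX4I2 held at most 0.107% of the COX4 reads per length in any library, and COX6A1 held all reads of its pair. The testis form COX6B2 averaged 1.13 CPM in DOX-positive and 1.32 CPM in DOX-negative cells, and the muscle form COX7A1 lay between 0.273 and 0.429 CPM in all 6 libraries. Neither was called. COX7A2 was higher by 0.24, less than COX7A2L, so within the COX7A family COX7A2L made up 36.9%, 36.4% and 36.0% of reads per length in DOX-positive libraries, against 31.5%, 30.9% and 30.3% in DOX-negative libraries. COX8C, a testis form named after its values were seen, had 22, 28 and 19 reads in DOX-positive libraries, against 10, 5 and 1 reads in DOX-negative libraries. The fitted value of 2.02 on the log2 scale (SE 0.56, edgeR adjusted p = 0.00557) is imprecise, and it ranged from 1.63 to 2.97 as single libraries were left out.

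NDUFA4 also has a paralogue, NDUFA4L2, known to rise in hypoxia. NDUFA4L2 had 2.25, 2.84 and 2.59 CPM in DOX-positive libraries, against 3.05, 2.75 and 2.67 CPM in DOX-negative libraries, with overlapping groups. Its share of the pair's reads per length averaged 3.46% ± 0.42 in DOX-positive and 5.38% ± 0.38 in DOX-negative cells (SD, n = 3 each), and the shares did not overlap.

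Nearly all ATP synthase genes outside the c-ring were higher. All 5 genes of the catalytic F1 head and all 9 nuclear genes of the stalk and membrane sector were higher, with median log2 fold changes of 0.38 and 0.42. Among all genes tested 27.1% were higher, and among genes at 10 CPM or more 50.5% were. ATP5F1B had 793.5, 806.2 and 812.0 CPM in DOX-positive libraries, against 620.4, 596.4 and 597.2 CPM in DOX-negative libraries (0.41, SE 0.03, edgeR adjusted p = 1.09e-09). ATP5F1E, the epsilon subunit, averaged 131.9 ± 3.77 CPM in DOX-positive and 83.6 ± 1.38 CPM in DOX-negative cells (0.66), and ATP5PB, the peripheral stalk subunit b, 91.8 ± 1.32 and 68.8 ± 0.74 CPM (0.42). The alpha subunit gene ATP5F1A, named after its values were seen, was higher by 0.09, and its call was lost in 5 of the 6 fits that left out a library. ATP5IF1, which encodes the inhibitor that stops ATP synthase from running in reverse and is not a subunit of the working enzyme, had 60.4, 60.2 and 61.1 CPM in DOX-positive libraries, against 38.5, 39.0 and 36.7 CPM in DOX-negative libraries (0.67, SE 0.03, edgeR adjusted p = 3.06e-11).

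The proton-carrying c-ring is built from one mature protein encoded by 3 genes, which differ in their import sequences. ATP5MC1 had 47.7, 46.9 and 47.7 CPM in DOX-positive libraries, against 39.5, 39.9 and 37.0 CPM in DOX-negative libraries (log2 fold change 0.29, SE 0.04, edgeR adjusted p = 2.67e-06). ATP5MC2 had a value of -0.04 and ATP5MC3 of 0.01, both with overlapping groups and neither called. Per length, ATP5MC1 made up 41.2%, 41.7% and 41.5% of the 3 genes' reads in DOX-positive libraries, against 36.3%, 36.6% and 35.7% in DOX-negative libraries. ATP5MC2 made up 47.9% ± 0.46 in DOX-positive and 52.4% ± 0.28 in DOX-negative cells (SD, n = 3 each).

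**Figure D3:**
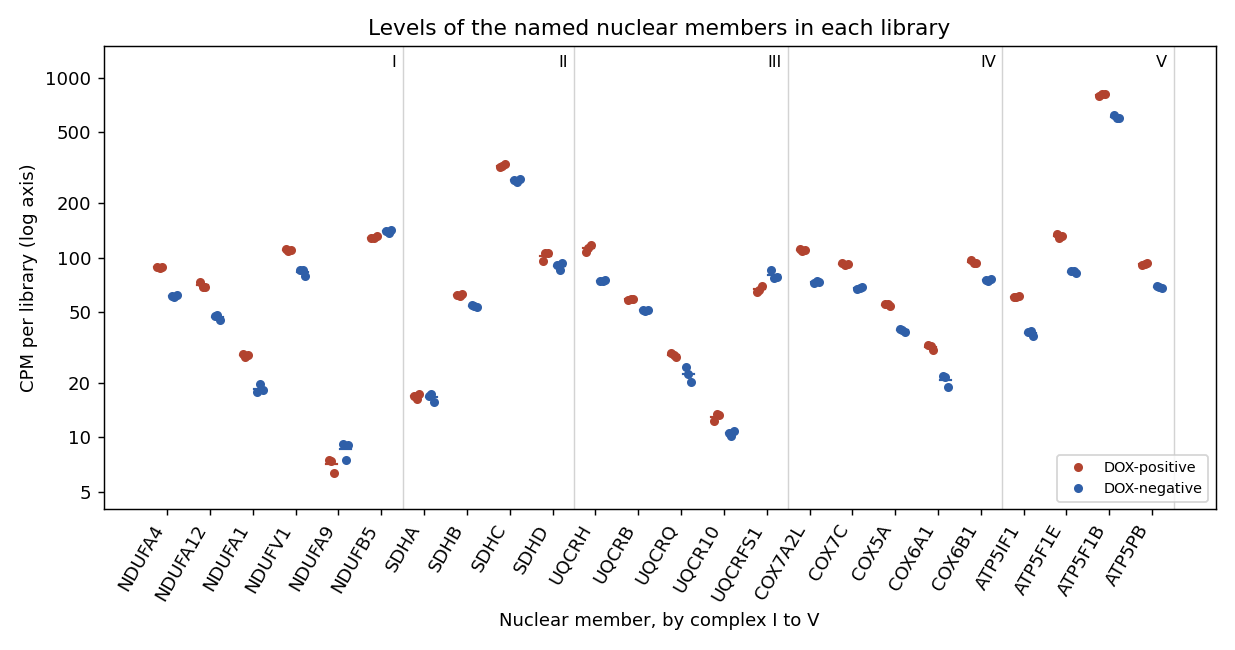
CPM of 24 nuclear members in each library (points, log axis) with group means (short bars), DOX-positive left of DOX-negative, by complex. Most genes shown were chosen for a small p or a call, so their separation follows from the choice. The groups separate for every gene but SDHA, against 61.4% of all genes tested and 81.9% of those at 10 CPM or more. UQCRFS1, NDUFB5 and NDUFA9 are the ones lower in DOX-positive cells.

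**Figure D4:**
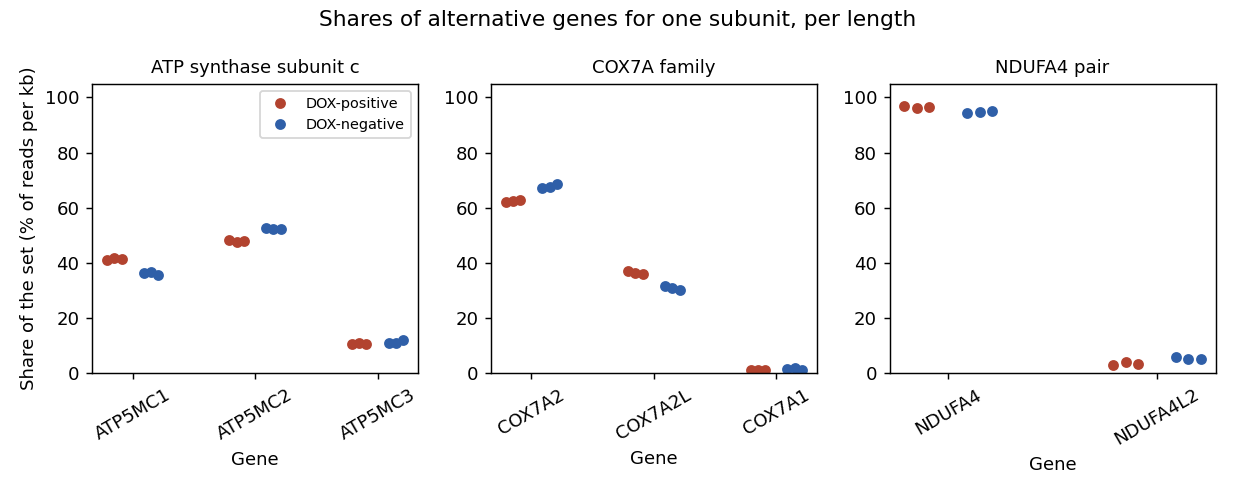
Share of reads per kilobase held by each alternative gene of ATP synthase subunit c, the COX7A family and the NDUFA4 pair, 1 point per library. ATP5MC1 lies near 41 to 42% in DOX-positive and 36 to 37% in DOX-negative libraries, and COX7A2L at 36.0 to 36.9% and 30.3 to 31.5%.

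Genes that build the complexes were described from lists. Of 17 complex I assembly factors 15 were higher and 0 lower, with a median log2 fold change of 0.39 (all genes tested: 27.1% higher, 28.2% lower, and 50.5% higher at 10 CPM or more). TMEM126B, a subunit of the membrane-arm assembly complex, had 67.4, 69.0 and 70.8 CPM in DOX-positive libraries, against 47.0, 47.0 and 50.2 CPM in DOX-negative libraries (0.52, SE 0.04, edgeR adjusted p = 1.24e-09). NDUFAF1, of the same assembly complex, and TMEM70, which acts in ATP synthase and complex I assembly, were higher by 0.61 and 0.60. Of 4 complex II factors 3 were higher (SDHAF2, SDHAF3 and SDHAF4, by 0.56, 0.41 and 0.50), and of 6 complex III factors 3 were higher, among them BCS1L, which inserts the Rieske protein, by 0.60. LYRM7, a chaperone of the Rieske protein, was higher by 0.35 and UQCC1 by 0.23, while UQCRFS1, which encodes the Rieske protein, was lower.

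Of 23 complex IV assembly factors tested 12 were higher (52.2%) and 1 lower, with a median of 0.11. These values are near those of genes at 10 CPM or more (50.5% higher, median 0.10), and 27.1% of all genes tested were higher. HIGD1A, which binds complex IV, was higher by 0.63 on the log2 scale, and the assembly factors COX14 and COA4 by 0.63 and 0.47. The gene of this list called lower was COX20 (-0.66, SE 0.19), a chaperone of the MT-CO2 product, named after its values were seen. COX20 had few reads, averaging 0.839 CPM in DOX-positive and 1.315 CPM in DOX-negative cells. Of 4 complex V factors, TMEM70 and the membrane insertase OXA1L (0.24) were higher and ATPAF1 (-0.14), an F1 assembly chaperone, was lower.

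Of 15 cytochrome c and coenzyme Q genes, most of them for coenzyme Q synthesis or binding, 4 were higher (26.7%) and 6 lower. Among all genes tested 27.1% were higher and 28.2% lower. Among genes at 10 CPM or more, a level most of the 15 reached, 50.5% were higher and 29.1% lower. The median log2 fold change of the 15 was -0.09. COQ10B, a coenzyme Q-binding protein, had 26.69, 24.98 and 25.57 CPM in DOX-positive libraries, against 47.4, 46.7 and 49.1 CPM in DOX-negative libraries, 1.85-fold lower (-0.89, SE 0.04, edgeR adjusted p = 2.95e-12). CYC1, the cytochrome c1 of complex III, whose symbol the member rule does not cover, was higher by 0.25, and COQ3, a methyltransferase of coenzyme Q synthesis, by 0.47. Cytochrome c itself, CYCS, named after its values were seen, had 218.0, 222.6 and 225.8 CPM in DOX-positive libraries, against 252.6, 238.3 and 250.9 CPM in DOX-negative libraries, a log2 fold change of -0.15.

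Of 11 genes of mitochondrial DNA maintenance and transcription 3 were higher and 3 lower, with a median of 0.03. These counts are near the shares of all genes tested (27.1% higher, 28.2% lower). Among genes at 10 CPM or more, a level most of these genes reached, 50.5% were higher and 29.1% lower. The nuclease MGME1 was higher by 0.50, while the topoisomerase TOP1MT and the helicase TWNK had values of -0.27 and -0.22. TFAM, which packages mitochondrial DNA and starts its transcription, had 63.8, 67.4 and 66.4 CPM in DOX-positive libraries, against 68.1, 62.9 and 64.6 CPM in DOX-negative libraries, and POLRMT, the mitochondrial RNA polymerase, had a log2 fold change of 0.04. Both are named after their values were seen, and neither was called.

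Of 18 genes of mitochondrial RNA processing, stability and decay 9 were higher and 2 lower, a share higher that is near the 50.5% of genes at 10 CPM or more (27.1% of all genes tested). SLIRP, which with LRPPRC binds and stabilises mitochondrial mRNAs, had 49.9, 48.6 and 47.6 CPM in DOX-positive libraries, against 32.8, 33.7 and 32.6 CPM in DOX-negative libraries (log2 fold change 0.56, SE 0.03, edgeR adjusted p = 3.77e-10). FASTK, known to be needed for the light-strand mRNA of MT-ND6, and SUPV3L1, the helicase of the mitochondrial degradosome, were higher by 0.45 and 0.42. LRPPRC and FASTKD3, named after their values were seen, had values of 0.18 and -0.53, both called.

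Of 9 nuclear regulators of respiratory genes tested 3 were higher (33.3%, against 27.1% of all genes tested and 50.5% of those at 10 CPM or more) and 1 lower. ESRRA, an orphan nuclear receptor, had 17.7, 16.5 and 16.8 CPM in DOX-positive libraries, against 12.96, 11.28 and 11.21 CPM in DOX-negative libraries (log2 fold change 0.53, SE 0.06, edgeR adjusted p = 1.18e-06). The coactivator gene PPRC1 and MYC were higher by 0.27 and 0.23. NRF1 and GABPA, whose sites the promoter search used, had values of -0.02 and 0.01 with overlapping groups and were not called, and YY1 was lower (-0.10). These 3 are named after their values were seen. PPARGC1A did not pass the read minimum.

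**Figure D5:**
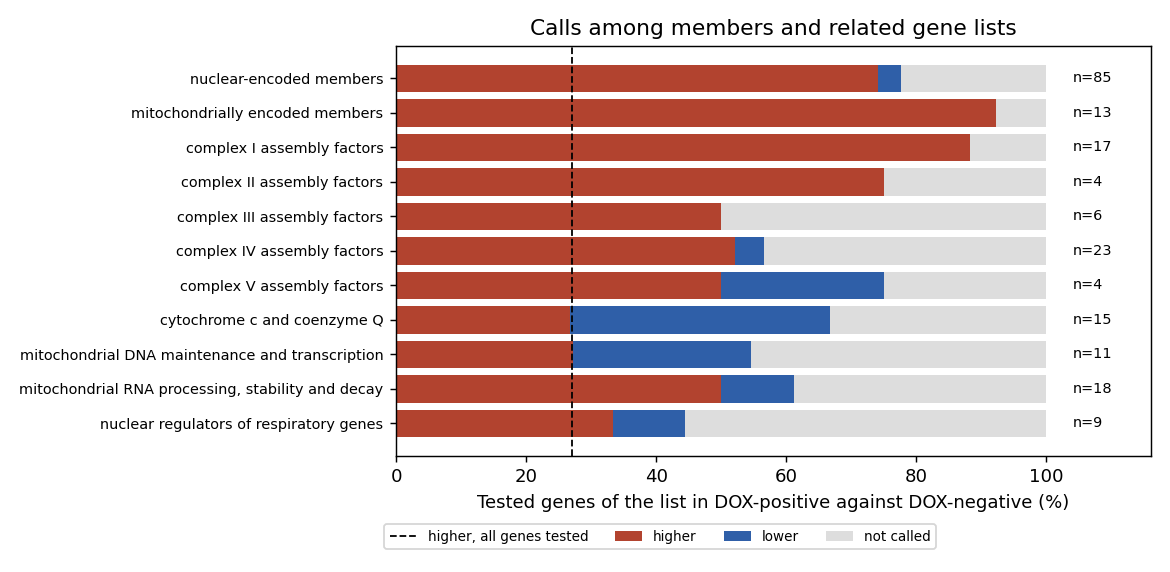
Percent of tested genes called higher, lower or not called (bars, DOX-positive against DOX-negative) among nuclear and mitochondrial members and 9 related lists, with the share of all genes called higher (dashed, 27.1%). Complex I assembly factors reach 88.2% higher, while cytochrome c and coenzyme Q genes stand at 26.7%. Among genes at 10 CPM or more 50.5% were higher, a share that is not drawn.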

How the data were processed

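Raw gene-level counts were deposited by the authors as one table of whole reads per Ensembl gene for 6 libraries (TruSeq Stranded mRNA, per the labels' protocols). STAR 2.7.9a, CASAVA 1.8.2 and DESeq2 1.24.0 are listed with the build GRCh38.p7 in the submitters' processing notes, without saying how strands or multi-mapped reads were counted. Genes with at least 10 reads in at least 3 libraries were tested with edgeR 4.0.16 (R 4.3.3), by TMM scaling and the quasi-likelihood test of DOX-positive over DOX-negative, with Benjamini-Hochberg adjustment over all 25179 genes and a threshold of 0.05. SE is the log2 fold change over the root of F. The script was tested on simulated data. CPM use TMM-scaled library sizes. Levels per kilobase divide by the length given in the count table, and exon overlap and positions come from GENCODE (GRCh38), matched by gene ID. For most members that length equals or nearly equals all annotated exon bases of the gene. Levels and shares per length are therefore not per transcript, and ranks between genes depend on the annotation. Shares of mitochondrial reads use raw counts. A p-value here reflects only variation among the 6 cultures, and read floors cover counting error only. Libraries of one group differed by more than sampling noise (chi-square per degree of freedom of 6.4 to 20.8), so none was merged.

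The members and lists were chosen with earlier results of these data known. Named genes are the 13 mitochondrial members, the SDH genes, per complex the 4 nuclear members with the smallest p among those higher, those called lower, the highest per length, the isoform genes and ATP5IF1, and per list the 3 called genes with the smallest p. A symbol pattern that drops pseudogenes was applied to nuclear symbols only, since MT-ATP6 and MT-ATP8 would match it. Alternatives were DESeq2 1.42.0 size factors and its Wald test, limma-voom (limma 3.58.1), other filters and scalings, a replicate block, mitochondrial reads left out of library size, and each library left out in turn. Some prostate luminal markers are not reported here.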

Additional observations from a re-analysis of the deposited data

How the results depend on the processing

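Over 16 alternative settings, 58 of the 75 members called higher stayed called in every setting that tested them. With library size alone set aside, 70 did. Of the 12 mitochondrial ones 11 stayed called in all, and of the 3 called lower 1 did. With at least 1 CPM in 3 libraries 93 of the 98 members were tested, and COX8C, below 1 CPM in every library, was not. With library size alone as the scaling, nuclear members called lower numbered 10, complex II members called higher 1 and complex III members called higher 4, and the median log2 fold changes were 0.13 for complex I, 0.046 for II, 0.064 for III, 0.28 for IV, 0.24 for V and 0.15 for nuclear members. NDUFS1 (-0.12), NDUFS3 (-0.007), SDHA (-0.13), UQCRC1 (-0.043), UQCRC2 (-0.021), COX5B (-0.14), ATP5F1A (-0.058) and ATP5MC3 (-0.13) changed sign there and were called with this scaling or the main one. Other members that were called with neither scaling also changed sign. Library size alone moves all genes by -0.14. With upper-quartile scaling 5 nuclear members were lower and 5 of complex III higher, with medians of 0.20 (I), 0.12 (II), 0.14 (III), 0.32 (V) and 0.23 (nuclear). With at least 1 CPM in 3 libraries 5 complex III members were higher, with a median of 0.17. The complex III median was 0.24 with DESeq2 (size factors or Wald test), 0.23 with no filter and 0.19 for standard subunits only. The cause of these shifts was not tested. Over the fits that left out 1 library, nuclear members called lower numbered 1 (without the first DOX-negative library) to 3, and the complex III median ran from 0.20 to 0.22. Same-numbered libraries did not deviate together (correlations of -0.16, -0.03 and 0.01), so no pairing by number was detectable. With the replicate block 63 nuclear members were higher and 3 lower, 12 mitochondrial members were higher and no member's call changed. Depth limits COX8C, COX7A1, ATP5MGL and the other members under 1 CPM.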
